A study of Mus musculus with 6 samples.

Results

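The immunoglobulin loci are the clustered gene segments that encode antibody heavy chains (chromosome 12), kappa light chains (chromosome 6) and lambda light chains (chromosome 16). They were taken here by position and symbol, as every locus of the deposited mm9 table that lies wholly in a fixed window around 1 of the 3 clusters and whose symbol starts with Igh, Igk, Igl, ENSMUSG or Gm. The loci found run over chr12:114493110-117238672, chr6:67505630-70676751 and chr16:19061475-19260937. They are 234 of 53445 loci, of which 118 belong to the heavy chain, 111 to the kappa chain and 5 to the lambda chain. By segment, 209 are variable, 10 are constant, 5 are joining, 4 are diversity, 1 (Iglv1) spans variable and constant parts, and 5 lie between the segments. Of the 234 loci, 206 had at least 10 reads in a library, 167 had more than 3 reads in every library, and 17 had no read.

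The reads come from Lin-Sca+Kit+ (LSK) cells, the fraction of bone marrow that holds the hematopoietic stem cells and the earliest progenitors. At least 20000 cells per library were sorted from female C57BL/6 mice of about 12 weeks. The 3 OgaVav-Cre mice carry floxed Oga (the gene of O-GlcNAcase, the enzyme that removes O-GlcNAc from proteins) and the Vav-iCre transgene, which is active in hematopoietic cells. The 3 wildtype mice were compared with them, 1 library per mouse. In the values below the OgaVav-Cre libraries are called mutants 1, 2 and 3 and the wildtype libraries WT 1, 2 and 3, after the replicate numbers of the labels, and the sources used here do not say whether the wildtype mice carried Vav-iCre. Since the RNA is from bulk samples, more cells of a type and more RNA per cell cannot be told apart in any value below.

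An antibody gene is assembled in the B lineage by cutting and joining 1 variable, 1 joining and, in the heavy chain, 1 diversity segment. The joined exon is spliced to a constant exon, which sets the class: mu for IgM, gamma for IgG, alpha for IgA, epsilon for IgE. A cell passes its joined segments to its daughters, so variable reads that collect on few loci are what a small number of cell clones would give. Plasma cells, many of which live in the bone marrow, make immunoglobulin RNA in very large amounts. The lineage cocktail of a sort for LSK cells is meant to leave out mature lineages.

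The libraries held between 19318056 and 27064389 counted reads. Mgea5, the table's symbol for Oga, had 104 to 110 reads in the mutants and 2736 to 3164 in the WT libraries. All 11 markers of LSK cells on a list that includes Kit, Ly6a and Cd34 were above 3 reads in every library, with summed levels of 1093 to 2172 CPM (counts scaled to library size by TMM) in mutants and 1399 to 2309 CPM in WT. All 14 plasma cell markers were also above 3 reads in every library. Their summed level was 13279, 6427 and 2219 CPM in mutants 1, 2 and 3 and 3367, 8703 and 2250 CPM in WT 1, 2 and 3. Most of it was Igj, the chain that joins IgM and IgA units. Without Igj the sum was 3353, 1511 and 1034 CPM in mutants and 1087, 1729 and 885 CPM in WT.

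Sequence at the variable loci is shown first, before the reads on them. The octamer, ATGCAAAT, is bound by the Oct factors at immunoglobulin promoters, and it is known to face opposite ways at heavy and light chain genes. Both strands of the 300 bases before each variable locus were searched in the mm9 genome. It was found before 82 of 105 heavy loci, every time as ATGCAAAT read along the gene. It was found before 63 of 102 kappa loci and both lambda variable loci, every time as ATTTGCAT. By comparison, 1.83% of 22380 annotated protein-coding genes had it, on either strand, in the 300 bases before their start. In the median the octamer ended 102.5 bases before a heavy locus and 93 bases before a kappa locus.

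The windows below have 40 bases with the octamer in capitals, read 5′ to 3′ along the gene. They belong to the loci that took the largest mean share of their chain's variable reads and to Igkv10-96, which led the kappa chain of 1 library. Ighv11-1 is on the minus strand at chr12:115220637-115220676, Ighv11-2 on the minus strand at chr12:115287000-115287039, Igkv14-126 on the plus strand at chr6:67846064-67846103 and Igkv10-96 on the minus strand at chr6:68582494-68582533.
Ighv11-1: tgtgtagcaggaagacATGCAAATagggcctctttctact
Ighv11-2: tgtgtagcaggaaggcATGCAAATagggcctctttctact
Igkv14-126: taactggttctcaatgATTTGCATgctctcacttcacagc
Igkv10-96: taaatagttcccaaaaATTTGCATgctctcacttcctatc
Ighv11-1 and Ighv11-2 are close copies in the bases before them: of the 120 bases before the locus 116 are identical. The counted bases of the loci were not compared, and whether reads of one were counted for the other is not known.

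At the other end of a variable segment stands the recombination signal, where the RAG proteins cut. It opens with a heptamer, and its most common form, CACAGTG, began within 10 bases after 70 of 105 heavy and 82 of 102 kappa loci, against 0.103% of the protein-coding genes. Among the 194 variable loci with at least 10 reads in a library 148 had it, and among the 15 others 4 had it. Ighv11-1, Ighv11-2, Igkv14-126 and Igkv10-96 were among those without it, while Ighv9-3 and Ighv7-1, which led the heavy chain of a library each, had it. Of other loci named below for their share, Ighv6-3, Igkv1-135 and Igkv15-103 had it and Igkv5-39 did not. The 40 bases after 5 loci follow, with CACAGTG in capitals where it occurs. They are, on the minus strand, chr12:115220050-115220089, chr12:115286412-115286451 and chr12:115378863-115378902 after Ighv11-1, Ighv11-2 and Ighv9-3, on the plus strand chr6:67846637-67846676 after Igkv14-126, and on the minus strand chr6:70067015-70067054 after Igkv8-30.
Ighv11-1: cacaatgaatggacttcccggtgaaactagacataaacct
Ighv11-2: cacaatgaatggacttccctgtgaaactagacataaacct
Ighv9-3: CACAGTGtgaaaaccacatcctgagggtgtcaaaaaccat
Igkv14-126: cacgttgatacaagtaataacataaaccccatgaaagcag
Igkv8-30: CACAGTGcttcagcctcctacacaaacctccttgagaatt
A heptamer with other letters can still be cut, and these matches are a description of the letters alone.

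Reads on the immunoglobulin loci took 17.0%, 7.36% and 2.08% of all counted reads in mutants 1, 2 and 3. In WT 1, 2 and 3 they took 3.35%, 9.03% and 2.28%. The groups overlapped, and the highest and the lowest library were both mutants. The share differed 8.17-fold between libraries, while the ratio of the geometric means of the genotypes was 1.56 (log2 0.64, exact permutation test over libraries, two-sided, p = 0.7, or 0.8 when adjusted over 12 such measures; the smallest p that 3 against 3 allows is 0.1). The direction rested on mutant 1, since without it the log2 ratio was -0.07. By counting error alone these shares were narrow, with 95% Wilson intervals of 17.00% to 17.03% for the highest and 2.079% to 2.089% for the lowest. The order of the libraries was the same as that of the summed plasma cell markers with Igj. Without Igj the order differed in 1 place, with mutant 3 above WT 3. The part of plasma cells in these shares was not tested.

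Overlapping loci may count some reads more than once, since the rule for such reads is not known. With each stretch of the genome counted once, by the locus with most reads, 185 loci were left. This goes by whole spans, so the 34 heavy variable loci within the span of Ighm drop out whether or not they share exons with it. The share of the loci left was 11.1%, 4.87% and 1.34% in mutants and 2.36%, 6.16% and 1.60% in WT 1, 2 and 3. The libraries stood in the same order, but these are not corrected shares.

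Heavy chain loci held most of these reads, from 70.2 to 77.0% per library. The heavy chain took 6.67% ± 5.89 (SD, n = 3) of all reads in mutants and 3.44% ± 2.54 (SD, n = 3) in WT, and the kappa chain 2.01% ± 1.67 (SD, n = 3) and 1.35% ± 0.992 (SD, n = 3). The lambda chain took 0.141% ± 0.116 (SD, n = 3) and 0.104% ± 0.0966 (SD, n = 3). In each chain the groups overlapped, and the exact permutation p was 0.7, 0.8 and 0.7 for heavy, kappa and lambda. The highest lambda share was not in the library with the highest heavy and kappa shares: mutant 2 had 0.267% lambda reads against 0.116% in replicate 1.

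**Figure D1:**
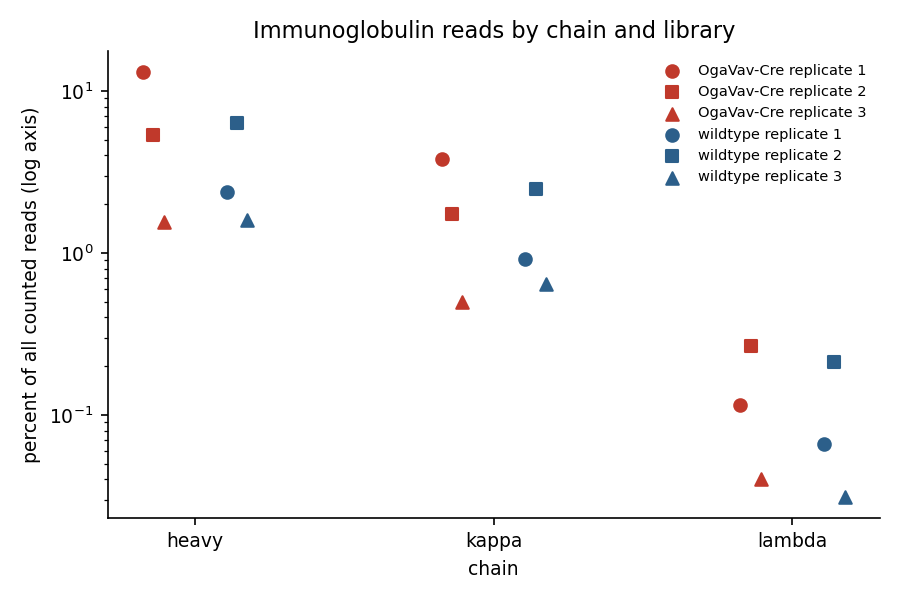
Percent of all counted reads (log axis) on the heavy, kappa and lambda loci in each of the 6 libraries, 1 point per library, OgaVav-Cre in red and wildtype in blue. The genotypes overlap in every chain, and the libraries within 1 genotype spread from 1.55% to 13.1% on the heavy chain.

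Kappa loci made up 97.0%, 86.7% and 92.5% of the light chain reads in mutants 1, 2 and 3 and 93.3%, 92.1% and 95.4% in WT (exact permutation p = 0.8). Mutant 2 was the lowest, and without it the difference turned from -1.51 to 1.19 percentage points. Iglv1, the locus that spans a lambda variable segment and the constant region next to it, had 54931 reads in that library and 3147 to 26302 in the others. Iglc3, a lambda constant locus that lies inside the span of Iglv1, had 2853, 10916 and 2704 reads in mutants and 1654, 7527 and 1598 reads in WT. Iglc2, the other lambda constant locus, had 6531, 2686 and 1050 reads in mutants and 2984, 4960 and 1484 reads in WT. Iglc2 reads were thus 2.29 times Iglc3 reads in mutant 1 and 0.246 times in replicate 2, with the 4 other libraries between. The lambda variable loci Iglv2 and Iglv3 had at most 2080 and 644 reads in a library.

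Among the heavy constant loci the composite locus listed as Ighm, named for mu, led in every library. It had 1719514, 697499 and 207674 reads in mutants 1, 2 and 3 and 262805, 638590 and 184641 reads in WT. This was 76248, 27601 and 7577 CPM in mutants and 12315, 33126 and 7811 CPM in WT. The genotypes overlapped, and the log2 fold change was 1.07 (standard error 0.81, edgeR quasi-likelihood test, adjusted p = 0.646). As listed, Ighm runs from chr12:114496913 to 115526793 in 40 exons on the minus strand, so its span holds 34 of the 105 heavy variable loci. That span also takes in the gamma locus and nearly all of Igh-VJ558, both described below, so Ighm is no clean count of mu. Whether alpha or gamma reads were counted in Ighm is not known. Igh-VX24 (chr12:114659740-115187007, minus strand) ends inside the annotated mu exons, and its span also holds variable loci. It had 809305, 328026 and 98626 reads in mutants and 136184, 344669 and 102974 reads in WT. Ighm reads were 2.12, 2.13 and 2.11 times Igh-VX24 reads in mutants and 1.93, 1.85 and 1.79 times in WT. With Igh-VJ558 reads taken off Ighm first, these values were 1.83, 1.76 and 1.79 in mutants and 1.82, 1.68 and 1.70 in WT.

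The alpha locus, listed as Igh-2 (a synonym of Igha), had more reads relative to Ighm in every mutant than in any WT library. As listed, Igh-2 runs from chr12:114493110 to 114720399 in 6 exons, so its span overlaps those of Ighm, Ighg and Igh-VX24. Whether reads of other classes were counted in it is not known, so it is no clean count of alpha. Igh-2 had 216464, 109790 and 28451 reads in mutants 1, 2 and 3. In wildtype it had 12564, 52679 and 8515 reads. Per 100 Ighm reads this was 12.6, 15.7 and 13.7 in mutants and 4.78, 8.25 and 4.61 in WT, with no overlap, although the immunoglobulin share of the libraries overlapped. The means were 14.0 ± 1.60 (SD, n = 3) and 5.88 ± 2.053 (SD, n = 3), a difference of 8.13 (exact permutation p = 0.1, the smallest possible). With Igh-VX24 in the place of Ighm the values were 26.7, 33.5 and 28.8 in mutants and 9.23, 15.3 and 8.27 in WT. This ratio was chosen after the values were seen, and the p carries no correction for that choice. As a level, Igh-2 overlapped between the genotypes and its log2 fold change was 2.02 (standard error 0.94, edgeR adjusted p = 0.492).

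**Figure D2:**
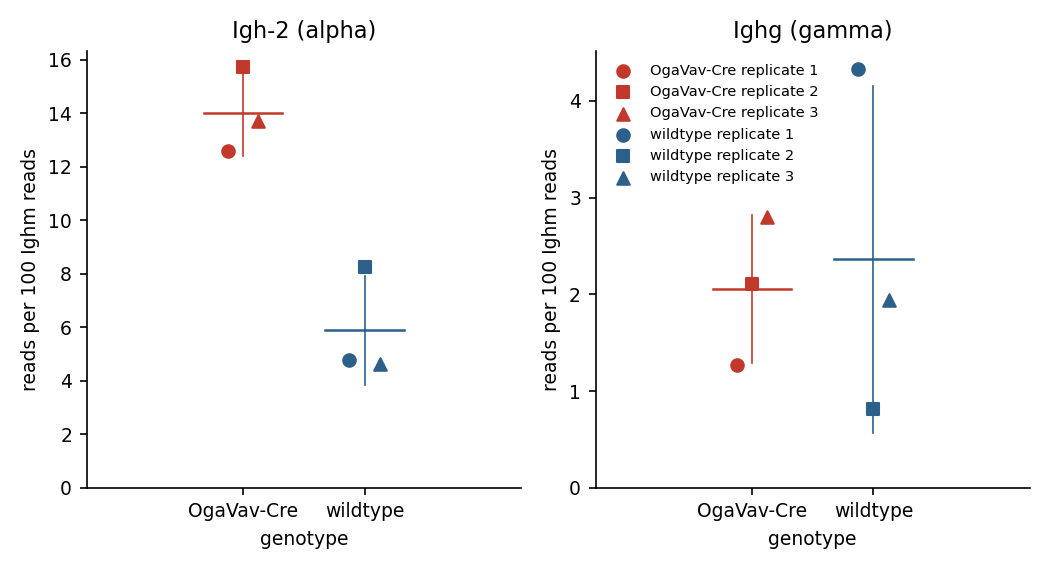
Reads of Igh-2 (left) and Ighg (right) per 100 reads of Ighm in each library, with bars for the mean and thin lines for the SD of 3 mice. The listed spans of these loci overlap. The 3 OgaVav-Cre libraries lie between 12.6 and 15.7 on the left, above the wildtype range of 4.61 to 8.25, while on the right the genotypes overlap.

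The locus listed as Igh-VJ558 at chr12:114496914-115526847 held nearly the same reads as Igh-2, which were 0.878 to 0.924 times its count in all 6 libraries. It had 237134, 119500 and 30791 reads in mutants and 14310, 58596 and 9560 in WT. It is therefore no second measurement of the alpha class.

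The gamma locus Ighg is listed over chr12:114541178-114826941, so it overlaps Igh-2, Ighm and Igh-VX24 and is no clean count of gamma. It had 21860, 14707 and 5815 reads in mutants and 11382, 5209 and 3578 reads in WT. Per 100 Ighm reads it ranged from 1.27 to 2.80 in mutants and from 0.816 to 4.33 in WT, and the groups overlapped (exact permutation p = 0.9). The epsilon locus Ighe had 131 reads in mutant 1 and at most 8 in the other libraries. The locus listed as Ighv14-2 at chr12:114644820-114668674 lies among the delta, mu and joining segments. It had 5146, 4198 and 10118 reads in mutants and 3062, 3188 and 5997 reads in WT, and took from 0.156 to 2.41% of the heavy chain reads. It was highest in mutant 3 and WT 3, where the heavy chain share was lowest. The other libraries did not follow that reverse order, with 228 CPM in mutant 1 and 143 CPM in WT 1.

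The Ighm percent of heavy constant reads was 55.4 ± 1.47 (SD, n = 3) in mutants and 58.7 ± 0.903 (SD, n = 3) in WT, without overlap (exact permutation p = 0.1, 0.3 when adjusted over the 12 measures set out together). The spread within a genotype was small, although the amount of immunoglobulin RNA differed severalfold. Igh-2 and Igh-VJ558 enter the denominator, so this measure is not independent of the alpha reads. Ighm itself may also hold alpha reads.

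As counted, the ratio of constant to variable reads differed little between libraries. In the heavy chain the constant loci overlap each other, and the span of Ighm holds 34 of the 105 variable loci. The constant and variable reads of that chain are therefore not separate counts. In the heavy chain the ratio was 10.3, 10.4 and 10.2 in mutants and 9.14, 9.16 and 9.40 in WT (log2 difference 0.15, exact permutation p = 0.1, adjusted 0.3). With Igh-2 and Igh-VJ558 left out of the constant reads it was 8.73, 8.49 and 8.59 in mutants and 8.58, 8.24 and 8.86 in WT, and the groups overlapped (log2 difference 0.0073, exact permutation p = 0.9). With Igh-VX24 alone as the constant locus, which leaves out Ighm as well, the ratio was 2.76, 2.67 and 2.63 in mutants and 2.83, 2.86 and 3.07 in WT, a log2 difference of -0.12. With each stretch of the genome counted once, which also leaves out those 34 variable loci, the log2 difference was 0.20 (exact permutation p = 0.6). In the kappa chain, where Igkc is the single constant locus, the ratio was 1.33 ± 0.0177 (SD, n = 3) in mutants and 1.39 ± 0.0896 (SD, n = 3) in WT, and the groups overlapped (exact permutation p = 0.4). Igkc itself had 546549, 257019 and 76930 reads in mutants and 109933, 285782 and 78697 reads in WT. Per length it was the highest of the constant loci, at a mean of 26404 RPKM over the 6 libraries against 8971 RPKM for Igh-VX24 and 1022 RPKM for Igh-2.

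The diversity and joining loci had almost no reads. The 4 diversity loci and 4 of the 5 kappa joining loci were at 0 in all 6 libraries. Igkj2 had 3, 8 and 11 reads in mutants and none in WT. These loci span 23 to 43 bases, shorter than a read of 50 bases, which limits what a count per locus can hold.

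Variable reads were spread over many loci in every library, with 82 to 95 of the 105 heavy loci and 86 to 95 of the 102 kappa loci above 3 reads. Few of them carried a large part of the reads. The 5 leading loci of a library held 35.8 to 70.0% of its heavy variable reads and 43.1 to 74.7% of its kappa variable reads.

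Ighv11-1 and Ighv11-2 led the heavy chain in all 3 WT libraries and in mutant 3. Ighv11-1 (chr12:115220090-115220552) took 7.86%, 6.55% and 17.0% of the heavy variable reads in mutants 1, 2 and 3 and 14.8%, 23.1% and 19.97% in WT. Ighv11-2 (chr12:115286452-115286915) took 5.04%, 3.50% and 9.12% in mutants and 13.8%, 14.6% and 18.5% in WT, without overlap. Together these 2 of 105 loci took 12.9%, 10.1% and 26.2% in mutants and 28.6%, 37.7% and 38.4% in WT.

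Igkv14-126 (chr6:67846171-67846636) led the kappa chain in 5 of 6 libraries and was the only kappa locus among the top 5 of all 6. It took 15.6%, 11.5% and 29.7% of the kappa variable reads in mutants and 32.8%, 41.5% and 39.98% in WT, again without overlap. As background, Ighv11-2 paired with Igkv14-126 is a known antibody of B-1a cells that binds phosphatidylcholine. Bulk counts do not show which heavy and light chains were in the same cell. The libraries stood in almost the same order for Ighv11 and for Igkv14-126, with mutants 2, 1 and 3 lowest and WT 1 next.

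The difference of the genotypes was -18.6 percentage points for Ighv11 and -19.1 points for Igkv14-126 (exact permutation p = 0.1 for each, the smallest possible, on measures chosen after the values were seen). As levels the same loci were not called. The log2 fold change was -0.39 (standard error 0.75) for Ighv11-1, -0.65 (standard error 0.70) for Ighv11-2 and -0.56 (standard error 0.70) for Igkv14-126, with edgeR adjusted p of 0.869, 0.752 and 0.786. Their levels overlapped between the genotypes: Igkv14-126 had 63974, 22618 and 16960 reads in mutants and 25916, 80229 and 24232 in WT.

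**Figure D3:**
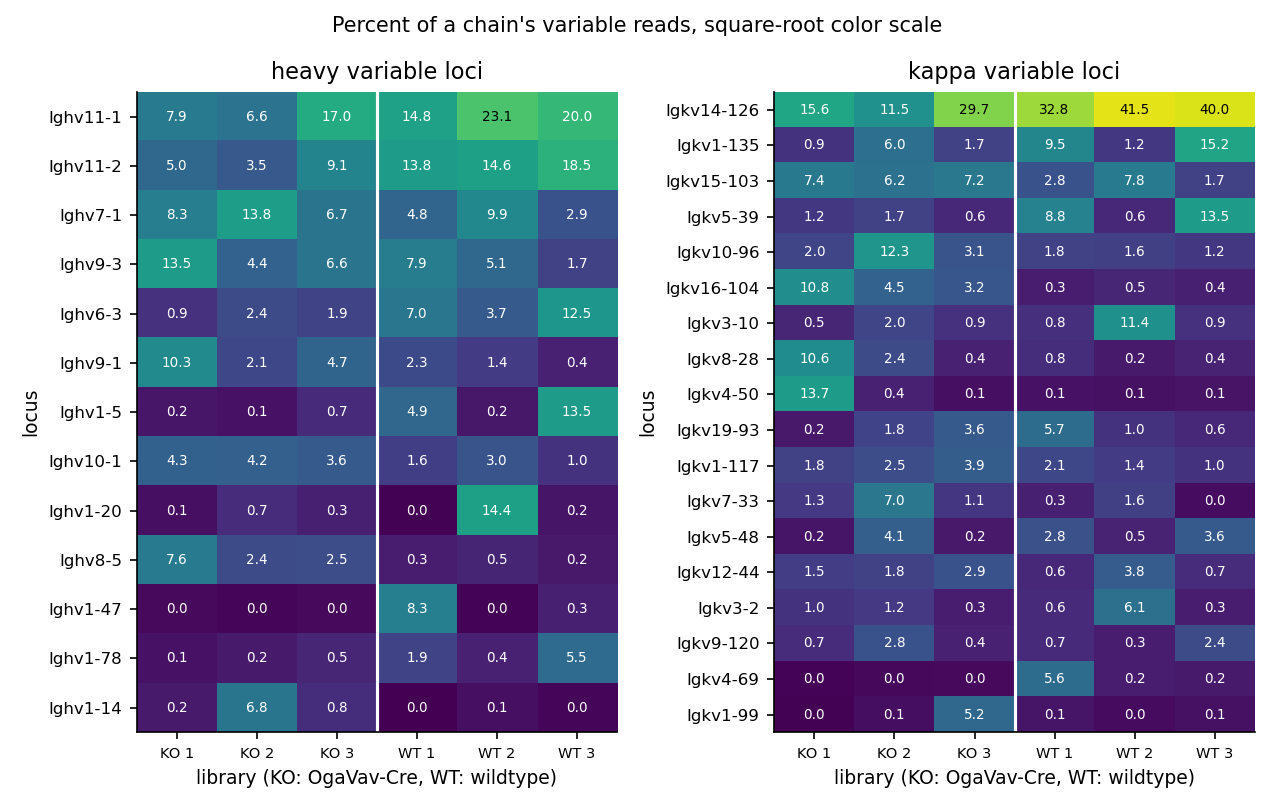
Percent of the heavy (left) and kappa (right) variable reads of each library (KO for OgaVav-Cre, WT for wildtype) on every locus that was among the 5 leading loci of a library, colored on a square-root scale with the percent printed in the cell. Ighv11-1, Ighv11-2 and Igkv14-126 are high in most libraries, and many other rows are high in 1 library only.

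Other loci were high in single libraries. In mutant 1 the heavy chain was led by Ighv9-3 with 13.5%, against 1.66 to 7.89% in the other libraries. In mutant 2 it was led by Ighv7-1 with 13.8%, against 2.89 to 9.85% elsewhere, and the kappa chain by Igkv10-96 with 12.3%, against 1.199 to 3.06%. Ighv6-3, the fifth of the heavy chain by mean share, was the reverse case. It had 0.919%, 2.44% and 1.88% in mutants and 6.96%, 3.66% and 12.5% in WT. On the kappa side Igkv1-135 and Igkv5-39 were both highest in WT 3 and 1, with 15.2% and 9.46% for Igkv1-135 and 13.5% and 8.85% for Igkv5-39. Igkv15-103 was steady in mutants at 6.22 to 7.41% and ranged from 1.70 to 7.84% in WT.

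The sharpest cases, chosen after the values were seen, were nearly private to a mouse. Ighv1-20 had 17387 reads and 14.4% of the heavy variable reads in WT 2, and at most 888 reads and 0.722% elsewhere. Igkv4-50 had 56249 reads and 13.7% of the kappa variable reads in mutant 1, and at most 753 reads and 0.384% elsewhere. Ighv1-14 had 8308 reads and 6.75% in mutant 2, and at most 683 reads and 0.789% elsewhere.

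A weaker measure of the same kind covers all loci. Were a locus used alike in all mice, each library would hold 16.7% of its summed percent. Instead 1 library held over 50% of it for 38 of the 101 heavy variable loci with reads (37.6%) and for 41 of 100 kappa loci (41.0%). Among loci with at least 10 reads in a library these were 34 of 95 (35.8%) and 38 of 97 (39.2%). The highest percent of a heavy locus was in mutants 1, 2 and 3 for 13, 25 and 22 loci and in WT 1, 2 and 3 for 20, 9 and 12 loci. Of the kappa loci it was in mutants for 19, 18 and 26 loci and in WT for 15, 13 and 9 loci. In all, a mutant held it for 60 of 101 heavy and 63 of 100 kappa loci. Between libraries of 1 genotype, Spearman's rho of the percents was 0.57 to 0.81 over 105 heavy loci and 0.62 to 0.82 over 102 kappa loci. Between genotypes it was 0.50 to 0.78 and 0.65 to 0.76. The loci share library, position and sequence, so these are descriptions.

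The effective number of loci, the number of equally used loci that would give the same Shannon entropy, was 24.8, 41.4 and 34.3 for the heavy chain in mutants and 26.9, 17.1 and 16.7 in WT. The means were 33.5 ± 8.32 (SD, n = 3) and 20.3 ± 5.76 (SD, n = 3), and the groups overlapped (exact permutation p = 0.2, adjusted 0.4). For the kappa chain it was 21.9, 31.0 and 25.3 in mutants and 18.8, 13.2 and 11.8 in WT, without overlap. These means were 26.1 ± 4.56 (SD, n = 3) and 14.6 ± 3.71 (SD, n = 3) (exact permutation p = 0.1, adjusted 0.3). Thinning each library to 33525 heavy and 57176 kappa variable reads, the lowest depth, moved no library's value by over 1%. Without Igkv14-126 the kappa values were 23.2, 32.3 and 41.7 in mutants and 30.8, 25.7 and 20.01 in WT. The groups then overlapped and the exact permutation p was 0.4, so the separation rested on that locus.

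The largest heavy locus took 14.8% ± 1.94 (SD, n = 3) of the variable reads in mutants and 19.3% ± 4.19 (SD, n = 3) in WT (exact permutation p = 0.2, adjusted 0.4). The largest kappa locus took 19.2% ± 9.22 (SD, n = 3) and 38.1% ± 4.61 (SD, n = 3), without overlap (exact permutation p = 0.1, adjusted 0.3).

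**Figure D4:**
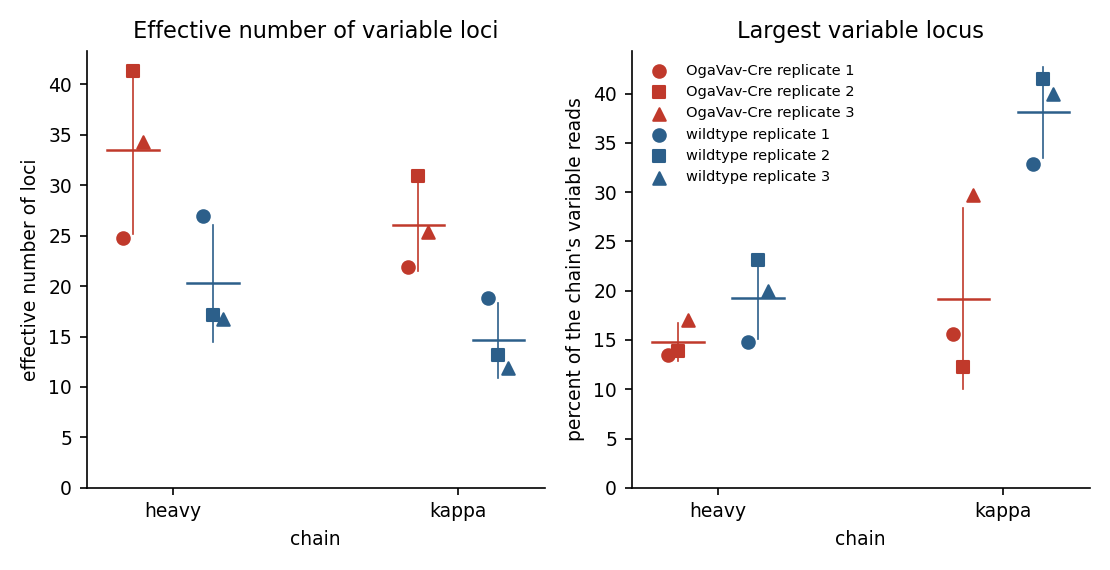
Effective number of variable loci (left) and percent of the variable reads on the largest locus (right) per library for the heavy and kappa chains, with bars for the mean and thin lines for the SD of 3 mice. On the kappa chain the OgaVav-Cre libraries lie between 21.9 and 31.0 effective loci and the wildtype libraries between 11.8 and 18.8.

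Families of related variable loci were not used in proportion to their size. The 53 Ighv1 loci, which are 50.5% of the heavy set, took 25.8% of the heavy variable reads as a mean over libraries, with a range of 11.4 to 33.5%. The 2 Ighv11 loci took 25.7% in the mean. Ighv9, with 4 loci, ranged from 2.32% in WT 3 to 29.8% in mutant 1. Ighv2, with 6 loci, took 11.8%, 4.79% and 7.39% in mutants and 1.42%, 0.897% and 0.955% in WT, and Ighv8, with 8 loci, took 13.7%, 5.90% and 6.51% against 2.23%, 1.36% and 0.919%. Neither of these 2 families, chosen after the values were seen, overlapped between the genotypes. Of the kappa families Igkv4 is the largest with 25 of 102 loci, and it took 9.39% of the reads in the mean, from 3.83 to 20.1%.

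By position the libraries were more alike on the heavy chain than on the kappa chain. The 52 heavy loci nearest the joining segments took 71.7 to 82.6% of the heavy variable reads in all 6 libraries. In the kappa chain the 51 loci farther from the joining segments took more than the nearer 51 in each library, from 52.1 to 73.2%, a set that includes Igkv14-126. The 40 kappa loci on the plus strand took 46.4 to 78.2%.

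Tested locus by locus between the genotypes, 191 of the 234 loci passed the filter on low counts. None was called at an adjusted p under 0.05 and a log2 fold change beyond 1 in either direction by edgeR. Of all 22032 loci tested 0.00454% were called higher and 0.0272% lower. At an unadjusted p under 0.05 there were 52 immunoglobulin loci, 27.2% of those tested, of which 47 were higher in mutants, against a background of 10.6% of all loci in either direction. The lowest adjusted p among the 191 was 0.251. DESeq2's Wald test called 9 of them higher and 2 lower, where 0.096% and 0.219% of 36466 loci were called.

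The median log2 fold change of the 191 was 1.25 against 0.00 over all loci tested. Of the 191, 147 had a fold change above 0 in mutants, against 11119 of all 22032 loci tested. So did 13 of the 14 plasma cell markers (median 0.62). Over all 217 loci with a read, without the filter, 168 were higher and the median was 1.27. It fell to 0.40 without mutant 1 and was 1.97 without WT 2. The libraries did not overlap between genotypes at 23 of the 191 loci with mutants higher (12.0%) and at 3 with mutants lower (1.57%), against 7.5% and 9.97% of all loci tested.

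The 5 loci with the smallest p were all variable. Igkv8-30 had 2033, 4172 and 2021 reads in mutants and 526, 606 and 355 in WT, with no overlap and a log2 fold change of 2.21 (standard error 0.37, edgeR adjusted p = 0.251). Ighv1-66 had 554, 409 and 895 reads in mutants and 72, 171 and 116 in WT (log2 fold change 2.10, adjusted p = 0.272). Ighv1-78 went the other way, with 291, 305 and 196 reads against 911, 460 and 1847 (log2 fold change -2.17, adjusted p = 0.299). The 2 others were largest in 1 or 2 mice. Ighv2-5 had 752, 578 and 58 reads in mutants and 29, 19 and 15 in WT. Igkv4-69 had 13, 48 and 17 reads in mutants and 4458, 481 and 142 in WT.

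The spread behind these tests was much larger than at other loci. The biological coefficient of variation, edgeR's estimate of the relative spread between mice of 1 genotype, had a median of 0.76 over the 181 variable loci tested and 0.25 over all loci tested. It was above the 95th percentile of all loci, 0.62, at 135 of the 181 (74.6%). DESeq2 gave no p for 48 of 36514 loci with reads because 1 library stood apart by Cook's distance, and 25 of these were variable immunoglobulin loci, 12.3% of the 203 with reads.

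**Figure D5:**
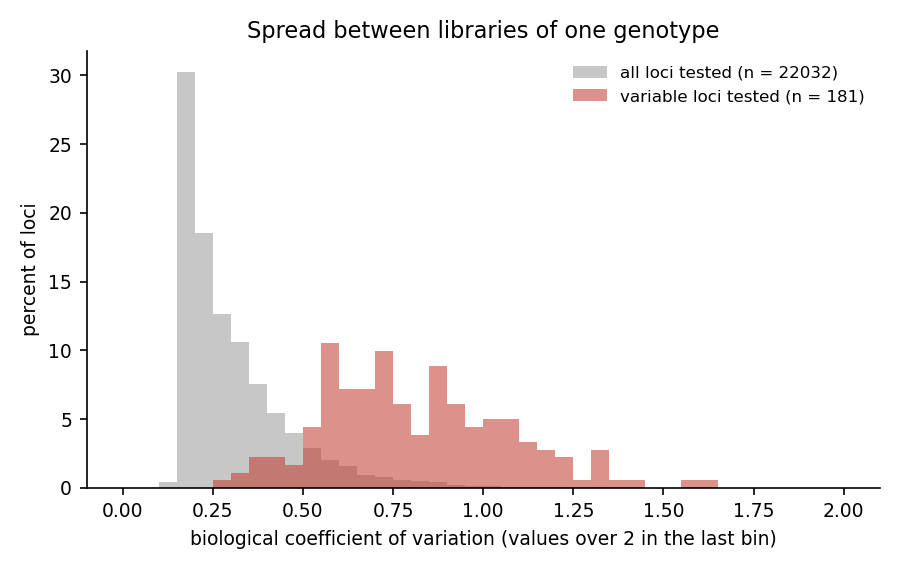
Distribution of the biological coefficient of variation over all loci tested (gray, 22032) and over the variable immunoglobulin loci tested (red, 181), as a percent of each set. The variable loci have a median of 0.76 and lie mostly above 0.62, the 95th percentile of all loci tested, whose median is 0.25.

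Of 44 listed genes that assemble, transcribe and carry immunoglobulin, 42 were found in the table, 41 were tested and none was called in either direction by edgeR, with 23 higher and 18 lower in mutants, 1 at an unadjusted p under 0.05 and a median log2 fold change of 0.04. Genes of early B cells followed another order of libraries than the immunoglobulin reads. Rag1, which cuts the segments, had 64.8, 36.01 and 110 CPM in mutants and 236, 58.3 and 175 CPM in WT. Igll1, part of the surrogate light chain of B cell precursors, had 41.7, 27.9 and 145 CPM in mutants and 182, 39.9 and 94.97 CPM in WT. Both were lowest in mutant 2, and among the WT libraries in replicate 2, which had the second highest immunoglobulin share of all.

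Dntt, which adds bases at the joints, had 286 to 627 CPM in all libraries. Cd79a, which signals from the antigen receptor, had 61.9, 44.7 and 164 CPM in mutants and 80.5, 35.8 and 111 CPM in WT, with its highest value in the library with the lowest immunoglobulin share. Igj went with the immunoglobulin reads, at 9926, 4916 and 1186 CPM in mutants and 2280, 6974 and 1365 CPM in WT. Pou2af1, the cofactor of the Oct factors at the octamer, varied less, from 160 to 361 CPM. Summed over all 10 mature B cell markers, each above 3 reads in every library, the level was 356 to 1432 CPM in mutants and 320 to 1090 CPM in WT. The 12 B cell precursor markers summed to 849 to 1628 CPM and 847 to 2122 CPM. All 12 had a fold change below 0 in mutants (median log2 -0.41), with Dntt and Cd24a near 0 (log2 -0.06 and -0.02). Of the 14 plasma cell markers 13 had one above 0 (median log2 0.62), and of all 22032 loci tested 11119 did. Markers of 1 cell type share the same libraries, so these counts are descriptions. None of either list was called by edgeR, with 0 and 1 at an unadjusted p under 0.05. Of the 11 markers of other lineages 10 were above 3 reads in every library, with sums of 171 to 1406 CPM and 312 to 451 CPM. The part of any of these cells in the immunoglobulin reads was not tested.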

How the data were processed

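Poly(A) RNA of LSK cells from 3 OgaVav-Cre and 3 wildtype mice was sequenced by the authors as single-end reads of 50 bases, with CASAVA 1.8.2 per the labels, and summarized per locus on mm9 with Genomatix. The aligner's settings, the rule for reads in overlapping or repeated loci, the use of strand and the annotation version are not given in the sources used here. The deposited table holds counts, raw reads per locus, and RPKM, which the authors scaled by locus length and library size. Its columns of fold changes, p-values and normalized expression (6 per-sample columns) were not used.

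Loci were selected by coordinate and symbol. The members and lists were chosen with earlier results of these data known. All 226 loci named by an Ensembl number were matched to a symbol, 76 of them through RefSeq synonyms (GRCm38.p6, for names only). Heavy constant loci are those on the minus strand that reach into the constant region, and several overlap. Counts were fitted over the whole table with edgeR 4.0.16 (R 4.3.3; TMM, filterByExpr, glmQLFit, glmQLFTest) and Benjamini-Hochberg adjustment. A total of 12 measures of shares and composition were compared by exact two-sided permutation over libraries and adjusted together, and 4 more were added after seeing the data. Alternatives used DESeq2 1.42.0, limma 3.58.1 (log2 of RPKM + 0.1), other filters and each library left out. Tests were checked on simulated data. Python 3.11.15 with scipy 1.17.1, pandas 2.3.3 and matplotlib 3.10.9 was used.

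Named were every constant locus, joining or diversity loci with at least 10 reads in a library, the 5 variable loci per chain with the highest mean percent, the leading locus of each library, called loci and the 5 loci with the smallest p. The count floor was 3 reads. Intervals cover counting error only. One library stands for 1 mouse, and sequence was read from mm9 (NCBI build 37).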

Additional observations from a re-analysis of the deposited data

Results flagged for a closer look

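Loci within the same windows but under other symbols were not counted as immunoglobulin loci here. Their reads are in the library totals, and whether they were also counted in overlapping immunoglobulin loci is not known. LOC100505358, which overlaps Iglv1, had up to 24166 reads in a library. AI324046, which covers the annotated gamma 3 constant exons and lies within the spans of Igh-2, Ighm and Ighg, had up to 10598 reads. Both were highest or nearly so where the lambda and heavy chain shares were high: LOC100505358 had 8261, 24166 and 2870 reads in mutants (OgaVav-Cre) 1, 2 and 3 and 3114, 10976 and 1379 in WT, and AI324046 had 10598, 8858 and 749 reads in mutants and 4112, 7048 and 579 in WT. With 3 libraries per genotype no single library was tested as an outlier.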

How the results depend on the processing

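The number of immunoglobulin loci called, 0, was 1 with no filter on low counts (Igkv8-30), 11 by DESeq2, 2 with the replicate block (Igkv8-30 and Ighv1-14) and 0 to 1 with each library left out, the 1 being Ighv2-5 without OgaVav-Cre replicate 3. The count at an unadjusted p under 0.05, 52, was 92 with no filter, 81 with the replicate block and 35 to 87 with each library left out, and the median log2 fold change ranged from 0.40 to 1.97. The replicate numbers were not taken as pairs. The correlations of deviations of same-numbered libraries were -0.089, 0.309 and 0.382, and those of differently numbered libraries ranged from -0.439 to 0.258. These values do not settle whether the numbers mark pairs. Under the block the exact p of the 12 measures cannot go below 0.25.

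With each library left out, the log2 ratio of the immunoglobulin share ranged from -0.067 to 1.45, of the heavy share from -0.0055 to 1.54, of the kappa share from -0.29 to 1.18 and of the lambda share from -0.16 to 1.24, and each turned sign in at least 1 case. The kappa percent of light chain reads ranged from -4.00 to 1.19 points and Ighg per 100 Ighm reads from -1.07 to 0.68. The other measures kept their direction with each library left out: Ighm percent -4.12 to -2.77, heavy constant to variable ratio 0.15 to 0.17, kappa ratio -0.11 to -0.01, effective number 9.26 to 17.6 (heavy) and 9.01 to 13.6 (kappa), largest locus -6.75 to -2.60 (heavy) and -24.1 to -15.4 (kappa), and Igh-2 per 100 Ighm reads 7.26 to 9.31. The heavy constant to variable ratio reversed to -0.12 with Igh-VX24 alone as the constant locus, a setting that leaves out Ighm and the alpha loci, and was 0.0073 (exact permutation p = 0.9) without Igh-2 and Igh-VJ558. With RPKM in place of reads the difference in Ighm percent was -0.89 (exact permutation p = 0.2) against -3.27. Why the RPKM value differed was not tested. With each stretch counted once Ighm was kept, and the 34 heavy variable loci within its span, which include Ighv11-1 and Ighv11-2, were left out. On the loci that remained the largest heavy locus differed by -13.9 points against -4.51. The heavy constant to variable ratio differed by 0.20 with an exact permutation p of 0.6 against 0.1. These values thus come from another set of loci. Loci with a named symbol only leave no kappa locus and at most 1 heavy variable locus, so most measures could not be computed there, and with each stretch counted once Ighm is the only heavy constant locus of note, so its percent was not recomputed. Depth limits the 28 loci under 10 reads in every library.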
